A study of Rattus norvegicus with 6 samples.

Results

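The Nedd4 family is a group of ubiquitin ligases that mark membrane and signalling proteins for internalization or degradation. It is described here together with its membrane adaptors, in dissociated spinal cord cultures grown on carbon nanotubes. The members were named as genes, namely the ligases Nedd4, Nedd4l, Itch, Wwp1, Wwp2, Smurf1 and Smurf2 and the adaptors Ndfip1 and Ndfip2, and each was matched by symbol to the array's probe annotation. Of the 9 genes, 8 have a probe set paired with that gene alone. Itch has no such probe set in the annotation used and no value is given for it. The 8 genes have 18 probe sets out of 20826 single-gene probe sets, which stand for 14217 genes. A probe set is a group of short oligonucleotides against 1 stretch of transcript, and every one of the 18 is reported.

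The 3 CNT cultures were grown on multiwalled carbon nanotubes deposited on glass coverslips, and the 3 control cultures on glass coated with polyornithine. All 6 came from spinal cords of rats at postnatal day 1 to 4, grew in a serum-containing medium to which nerve growth factor was added at 5 ng/mL, and were taken for total RNA after 8 days in vitro. The sample labels name Sprague-Dawley rats, while the study's methods name Wistar rats. Each culture has 1 Affymetrix Rat Genome array, and the values are log2 expression after RMA, the authors' background correction, normalization and summary over probes. In what follows a difference or log2 fold change is CNT minus control on this log2 scale. The number of arrays limits the precision.

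Ligases of this family carry WW domains, which bind short proline-rich motifs in a target, and a HECT domain, whose cysteine takes ubiquitin from a conjugating enzyme and passes it to that target. In neurons, Nedd4 and Nedd4l are known for ubiquitinating voltage-gated sodium channels, glutamate receptors and other membrane proteins, and Nedd4 also for a part in axon branching. Ndfip1 and Ndfip2 are small membrane proteins that bring the ligases to their targets and relieve their autoinhibition. Nedd4 is one of the genes that the study itself picked on these arrays, so its direction here is not independent evidence.

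Cells of several kinds were present in the cultures. Mean log2 expression of the neuron markers, 12 genes such as Tubb3 and Snap25, was 9.28 to 9.35 in CNT and 9.27 to 9.48 in control cultures, and that of 8 astrocyte markers such as Gfap was 11.60 to 12.13 in CNT and 11.79 to 12.18 in control cultures. The 10 fibroblast and meningeal markers had means of 11.90 to 13.11 in CNT and 12.91 to 13.18 in control cultures, and the 8 microglia markers 11.78 to 12.42 in CNT and 11.37 to 12.19 in control cultures. The 8 interferon response genes stood at 11.49 to 12.33 in CNT and 7.97 to 11.06 in control cultures. RNA quality can be read in part from 3 rat transcripts that have probe sets at both ends. For beta-actin, the 3' signal minus the 5' signal was 0.92, 2.20 and 1.72 log2 in CNT cultures 1, 2 and 3, against 2.20, 0.62 and 0.66 log2 in control cultures 1, 2 and 3. The same difference for Gapdh was 0.22, 0.59 and 0.46 log2 in CNT and 0.82, 0.18 and 0.22 log2 in control cultures, with control 1 and CNT 2 again highest. For hexokinase it was 3.85, 2.76 and 2.75 log2 in CNT and 3.27, 4.39 and 2.74 log2 in control cultures, so that control 2 and CNT 1 were highest and CNT 2 was low. For Dap, a control transcript not of rat, it was 4.65, 4.16 and 2.99 log2 in CNT and 5.39, 4.17 and 2.19 log2 in control cultures. Control 1 was highest and control 3 lowest there, as for the Lys and Phe controls. The cause of this array difference was not tested.

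Nedd4 lay lower in CNT cultures by most of its probe sets, and the other 7 measured members lay close to control. Log2 fold changes were below 0 in 5 of the 6 Nedd4 probe sets, and in 9325 of all 20826 single-gene probe sets. Those of Nedd4 ranged from -1.43 to 0.05 around a median of -0.56. The 12 probe sets of the other members ranged from -0.33 to 0.22 with a median of 0.04, where all 20826 single-gene probe sets had a median of 0.02. No member passed limma's test after Benjamini-Hochberg adjustment over all probe sets at 0.05, and neither did any other probe set, higher (0.0%) or lower (0.0%). At an unadjusted p under 0.05, 3 member probe sets were lower, all of Nedd4, against 1.02% of all probe sets, and none was higher, against 1.94%. That count of 3 was 1 with the replicate number as a block or with each array centred on its median, 1 without CNT 1 or control 2, and 0 without CNT 2 or control 3. It was 2 with cyclic loess normalization or without control 1. With trend and robust eBayes, array weights, quantile normalization, the dimmest 30% left out, or without CNT 3, it stayed at 3. Over all probe sets these unadjusted counts were 403 higher and 213 lower, and 661 and 127 when each array was centred on its median. In 4 member probe sets, again all of Nedd4, the highest CNT array was below the lowest control array, against 2.43% of all probe sets. In none was the lowest CNT array above the highest control array, against 5.53%. Probe sets of 1 gene were read from the same RNA and are not independent, so these member counts rest on Nedd4 alone. By the probe set of highest mean per gene, 1 of 8 member genes was lower at an unadjusted p under 0.05, against 0.654% of 14217 genes. The same gene was the 1 whose CNT arrays all lay below its control arrays, against 2.05%. For such separated groups the two-sided exact permutation test gives its smallest possible p with this number of arrays, 0.1.

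**Figure D1:**
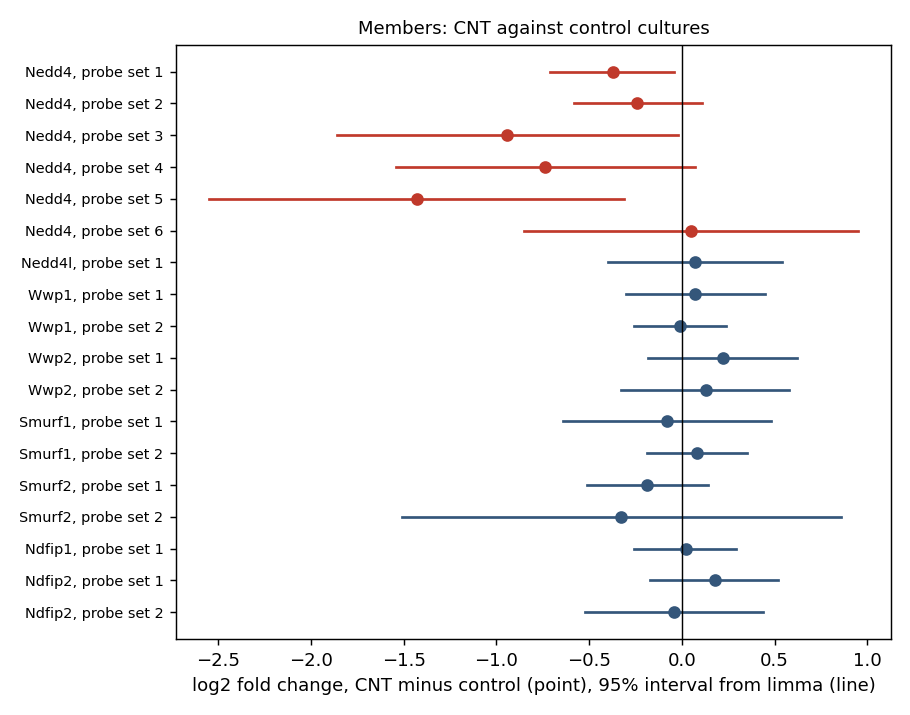
Log2 fold change of the 18 member probe sets (points, CNT minus control) with the 95% interval from limma (lines), Nedd4 in red and the other members in blue. The intervals of Nedd4 probe sets 1, 3 and 5 lie below 0, and all others include it.

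The Nedd4 probe sets are numbered 1 to 6 from the highest to the lowest mean over the 6 arrays. Probe sets bind with different strength, so the order of their levels says nothing about the amount of transcript. Probe set 1 (1375119_at) had a log2 expression of 12.98, 13.21 and 13.43 in CNT cultures 1, 2 and 3, against 13.55, 13.66 and 13.52 in control cultures 1, 2 and 3. The groups did not overlap, with a gap of 0.096 between CNT 3 and control 3, and CNT 1 was lowest. The log2 fold change was -0.37 (standard error 0.14, 95% interval -0.71 to -0.04, unadjusted p = 0.0346 and adjusted p = 0.999 from limma), a fold of 0.772.

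Probe set 2 (1371314_at), at much the same level as probe set 1, gave 13.28, 13.01 and 13.44 in CNT cultures against 13.60, 13.44 and 13.40 in control cultures. Here CNT 3 lay within the control range, and CNT 2, not CNT 1, was the lowest array. The log2 fold change was -0.24 (standard error 0.14, 95% interval -0.58 to 0.11, adjusted p = 0.999 from limma).

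Probe set 3 (1383899_at) gave 10.84, 9.59 and 10.75 in CNT cultures and 10.97, 11.69 and 11.33 in control cultures. CNT 2 stood more than 1 log2 unit below every other array, and the groups were separated by 0.133, between CNT 1 and control 1. Its log2 fold change was -0.94 (standard error 0.38, 95% interval -1.86 to -0.02, unadjusted p = 0.0473 and adjusted p = 0.999 from limma). Probe set 4 (1386263_at) repeated this order of arrays at a lower signal, with 9.08, 8.04 and 9.04 in CNT and 9.09, 9.72 and 9.57 in control cultures. Its groups were separated by 0.003 only, so that CNT 1 and control 1 were practically level, and its log2 fold change was -0.74 (standard error 0.33, 95% interval -1.54 to 0.07, adjusted p = 0.999 from limma).

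Probe set 5 (1395157_at) had the lowest fold of the family. Its log2 expression was 7.43, 6.87 and 8.36 in CNT cultures and 8.40, 8.96 and 9.58 in control cultures. CNT 2 was again lowest, control 3 was highest, and CNT 3 came within 0.031 of control 1. The mean was 7.55 ± 0.75 (SD, n = 3) in CNT and 8.98 ± 0.59 (SD, n = 3) in control cultures, a fold of 0.372 with a 95% interval of 0.171 to 0.809 (log2 fold change -1.43, standard error 0.46, unadjusted p = 0.0207 and adjusted p = 0.999 from limma). In all, 11 of the 20826 probe sets had a log2 fold change as low as this one or lower, itself included. Probe set 6 (1384326_at), the dimmest, did not follow the others. It gave 7.59, 6.50 and 6.86 in CNT and 6.70, 7.54 and 6.56 in control cultures, where CNT 1 and control 2 were high and the remaining 4 arrays low. Its log2 fold change was 0.05 (standard error 0.37, 95% interval -0.85 to 0.95, adjusted p = 0.999 from limma).

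**Figure D2:**
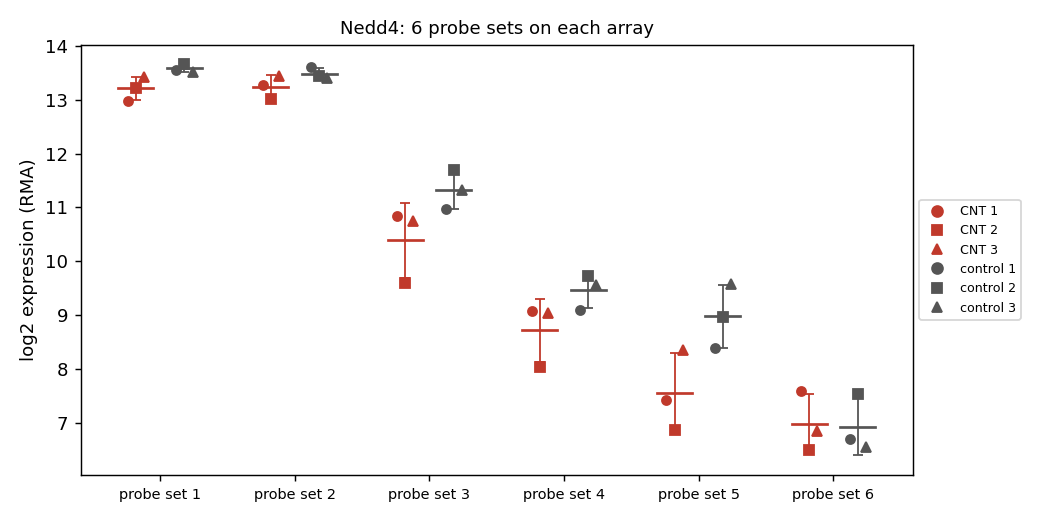
Nedd4 on each array by its 6 probe sets, in log2 expression and ordered by mean, with CNT cultures in red and control cultures in grey and a marker shape per replicate number. Lines mark the mean and bars the SD of the 3 cultures, and CNT 2 is the lowest array for probe sets 2 to 6.

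The probe sets thus gave folds for 1 gene from 0.372 to 1.04. This spread of 1.48 log2 units was the widest among the 35 genes that have at least 6 single-gene probe sets, where the median spread was 0.42 and that of the next gene, the tropomyosin gene Tpm1, was 1.37. Within an array, the signal of probe set 5 minus that of probe set 1 was -5.55, -6.34 and -5.06 in CNT cultures and -5.16, -4.69 and -3.94 in control cultures, so CNT 3 lay among the controls in this measure. The pair was picked for its folds, and the difference was not tested. When the 6 probe sets were averaged, Nedd4 had a mean of 10.02 ± 0.42 (SD, n = 3) in CNT and 10.63 ± 0.23 (SD, n = 3) in control cultures, a log2 fold change of -0.61 (standard error 0.24, unadjusted p = 0.0405 and adjusted p = 0.999 from limma). A rank product was also computed, as the geometric mean of a probe set's ranks over the 9 pairs of a CNT and a control array. The study used a rank product too, but on a different probe annotation and with an arrangement of the samples that was not repeated here. From the lower end it placed Nedd4 probe sets 5, 3 and 4 at positions 6, 99 and 272 of 20826, and probe sets 1, 2 and 6 at 1333, 3060 and 7467. A Smurf2 probe set (1398420_at), whose groups overlapped, came at 1304, ahead of Nedd4 probe set 1. No rate of false positives was estimated for these positions.

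CNT 2 weighed on 5 of the 6 probe sets. Without it, the log2 fold changes of probe sets 2 to 6 were -0.12, -0.54, -0.40, -1.09 and 0.29, while that of probe set 1 was -0.37, as with all arrays. Without CNT 3, the values for probe sets 3, 4 and 5 were -1.11, -0.90 and -1.83. Other arrays also brought single probe sets nearer to control: probe set 5 was at -1.13 without control 3, and probe set 1 at -0.26 without CNT 1. Probe sets 1 to 5 stayed below 0 with any single array left out, and probe set 6 ranged from -0.25 to 0.35.

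**Figure D3:**
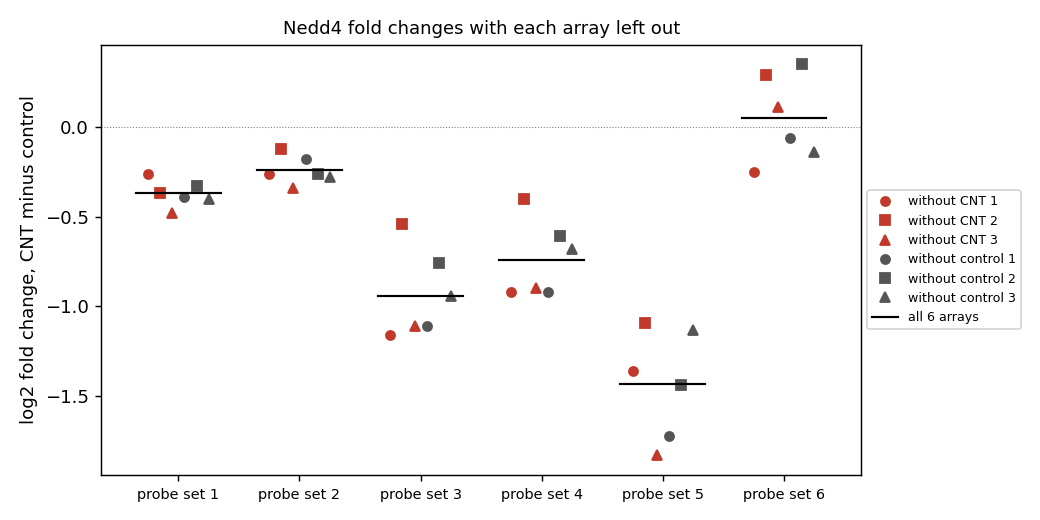
Log2 fold change (CNT minus control) of the 6 Nedd4 probe sets with all arrays (black lines) and with each array left out in turn, red for a CNT and grey for a control array. Leaving out CNT 2 gives -0.54 for probe set 3 against -0.94 with all arrays.

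The same culture was low in most of the listed marker genes of connective tissue. Relative to the mean of the 6 arrays, the 10 fibroblast and meningeal markers stood at -0.13, -0.89 and 0.32 in CNT cultures 1, 2 and 3 and at 0.39, 0.20 and 0.12 in control cultures 1, 2 and 3. For the 7 smooth muscle and pericyte markers the values were 0.01, -0.80 and 0.19 in CNT and 0.57, -0.10 and 0.13 in control cultures. Log2 fold changes were below 0 for 9 of the 10 fibroblast markers (median -0.48) and for 6 of the 7 smooth muscle and pericyte markers (median -0.56), and none passed the test. By the probe set of highest mean, 5899 of all 14217 genes were below 0. Periostin (Postn), a matrix protein of fibroblasts picked after values were seen, had the lowest log2 fold change of the 10 (-0.87). It had 12.43, 9.61 and 12.47 in CNT and 12.33, 12.24 and 12.54 in control cultures. Not all markers followed: Pdgfra of the same list had 12.91, 12.97 and 13.60 in CNT and 13.22, 13.11 and 12.92 in control cultures. Des, of the smooth muscle list, stood at 7.72 in CNT 2 and 7.50 in control 1. Relative to their own means, Nedd4 probe set 2 stood at -0.08, -0.36 and 0.08 in CNT and at 0.24, 0.08 and 0.04 in control cultures, with CNT 2 lowest and control 1 highest as in both lists. In probe sets 3, 4 and 5, CNT 2 was lowest too, while control 1 was the lowest of the controls. The part of these cells in the Nedd4 values was not tested. In a mixed culture, fewer cells of a type and less RNA per cell cannot be told apart.

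CNT 2 and control 1 were also the highest arrays in the 3' to 5' differences of beta-actin and Gapdh, though not in that of hexokinase. In that of the Dap control, control 1 was highest but CNT 2 (4.16 log2) lay below CNT 1 (4.65 log2). Without CNT 2 and control 1, the log2 fold changes of Nedd4 probe sets 1 to 6 were -0.39, -0.06, -0.71, -0.58, -1.38 and 0.18. Probe set 2 was then close to 0 and probe set 5 near its value with all arrays. The positions of the probe sets along the transcript were not used here, and the part of RNA quality in their disagreement was not tested.

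**Figure D4:**
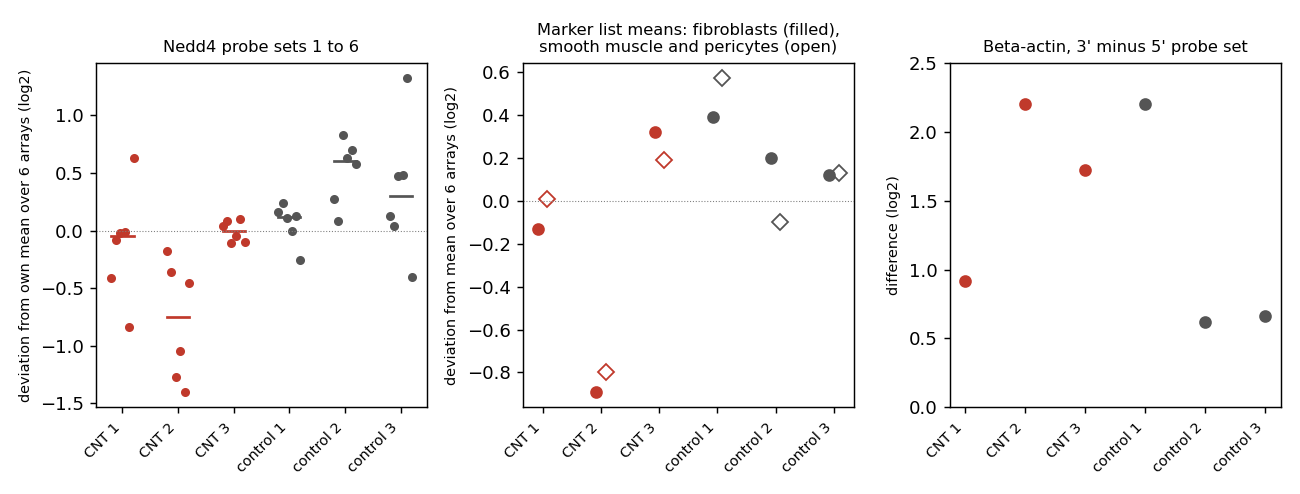
For each array, CNT in red and control in grey: deviations of the 6 Nedd4 probe sets from their own means with the median as a line (left), deviations of the mean fibroblast and smooth muscle marker levels (middle), and the beta-actin 3' minus 5' difference (right), all in log2. CNT 2 is low in the left and middle panels, and shares the highest value in the right panel with control 1.

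The genes whose profiles lay nearest to Nedd4 differed with the probe set. For probe set 1 these were Gna11, Gbx2, Sp1, Dzip1 and Car8, with a root-mean-square difference of 0.0597 to 0.114 log2 between the 6 centred values. Gna11, which encodes a G protein alpha subunit, was nearest and had a log2 fold change of -0.41. For probe set 5 they were Fbn2, Rora, Slc6a13, Pard6g and Ephx1, with root-mean-square differences of 0.346 to 0.458 log2, and none of the 5 was shared with probe set 1. Fbn2, which encodes the matrix protein fibrillin, had a log2 fold change of -1.29, and Slc6a13, a GABA transporter gene, of -1.04. These are the nearest of 14217 genes less the members over 6 arrays, given as a description.

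Nedd4l, the closest relative of Nedd4 and a regulator of epithelial and neuronal sodium channels, is measured by 1 probe set (1389507_at). It gave 10.44, 10.82 and 10.33 in CNT and 10.32, 10.76 and 10.29 in control cultures. CNT 2 and control 2 stood above the remaining arrays, and the groups overlapped over nearly their whole range. The log2 fold change of 0.07 (standard error 0.19, adjusted p = 0.999 from limma) had a 95% interval of 0.758-fold to 1.46-fold. CNT 2, the lowest array for most Nedd4 probe sets, was thus the highest for Nedd4l.

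Wwp1 and Wwp2, ligases whose names record their WW domains, were each measured by 2 probe sets. The brighter Wwp1 probe set (1395268_at) gave 8.90, 9.14 and 9.28 in CNT and 9.0, 8.85 and 9.24 in control cultures, a log2 fold change of 0.07 (standard error 0.15, adjusted p = 0.999 from limma). The dimmer one (1397761_at), at percentile 2.80 of all single-gene probe sets by mean, stayed between 4.42 and 4.67 on all 6 arrays. Its log2 fold change was -0.01 (standard error 0.10), and whether such a signal stands above background was not determined.

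Wwp2 had the highest log2 fold change of the members. Its brighter probe set (1374256_at) gave 9.63, 10.02 and 9.51 in CNT and 9.50, 9.64 and 9.36 in control cultures. The groups overlapped, CNT 2 being the highest array and control 3 the lowest. The log2 fold change was 0.22 (standard error 0.16, 95% interval -0.18 to 0.62, adjusted p = 0.999 from limma), and 0.07 without CNT 2. The dimmer Wwp2 probe set (1384398_at) gave 8.52, 8.71 and 8.39 in CNT and 8.09, 8.73 and 8.42 in control cultures, with a log2 fold change of 0.13 (standard error 0.19). Control 1 was the lowest array there, and without it the log2 fold change was -0.04.

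Smurf1 and Smurf2 are known for ubiquitinating Smads and the receptors of TGF-beta and BMP signalling. The brighter Smurf1 probe set (1388824_at) gave 10.80, 10.63 and 10.27 in CNT and 10.56, 11.04 and 10.33 in control cultures, a log2 fold change of -0.08 (standard error 0.23, adjusted p = 0.999 from limma). Both cultures numbered 3 were low and control 2 was high. The dimmer Smurf1 probe set (1392802_at) gave 6.92, 6.96 and 6.90 in CNT and 6.92, 6.94 and 6.67 in control cultures, a log2 fold change of 0.08 (standard error 0.11). Control 3 alone stood apart in it.

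The brighter Smurf2 probe set (1388607_at) gave 10.80, 10.87 and 10.93 in CNT and 11.29, 10.95 and 10.92 in control cultures. All CNT arrays but CNT 3 lay below the controls, and control 1 was highest. The log2 fold change was -0.19 (standard error 0.13, 95% interval -0.51 to 0.14, adjusted p = 0.999 from limma), and -0.07 without control 1. The other Smurf2 probe set (1398420_at) was the most variable outside Nedd4, with 8.94, 10.02 and 10.59 in CNT and 10.53, 9.51 and 10.50 in control cultures. CNT 1 and control 2 were low in it, and its log2 fold change of -0.33 (standard error 0.48, 95% interval -1.51 to 0.86) became 0.13 without CNT 1.

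The adaptors overlapped between the groups in all 3 of their probe sets, over a range across the 6 arrays of 0.30 log2 for Ndfip1 and of 0.51 and 0.57 log2 for Ndfip2. Ndfip1 (1398893_at) gave 13.06, 13.12 and 13.16 in CNT and 13.13, 12.93 and 13.23 in control cultures, and its log2 fold change of 0.02 (standard error 0.11, adjusted p = 0.999 from limma) had a 95% interval of 0.837-fold to 1.22-fold. The brighter Ndfip2 probe set (1373861_at) gave 12.22, 12.40 and 12.45 in CNT and 12.28, 11.94 and 12.32 in control cultures. Control 2 was low in it, as it was in Ndfip1, and the log2 fold change was 0.18 (standard error 0.14, adjusted p = 0.999 from limma), or 0.06 without control 2. The dimmer Ndfip2 probe set (1389364_at) gave 11.87, 11.42 and 11.58 in CNT and 11.31, 11.88 and 11.79 in control cultures, with a log2 fold change of -0.04 (standard error 0.20).

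**Figure D5:**
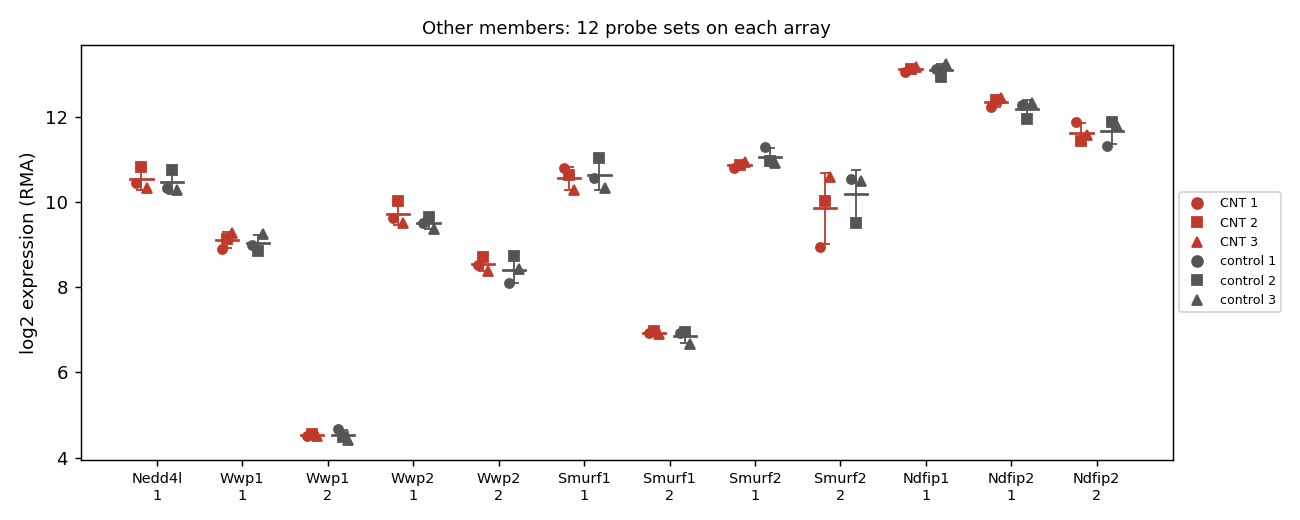
Log2 expression of the 12 probe sets of Nedd4l, Wwp1, Wwp2, Smurf1, Smurf2, Ndfip1 and Ndfip2 on each array, with CNT cultures in red and control cultures in grey and a marker shape per replicate number. Lines mark the mean and bars the SD of the 3 cultures, and the groups overlap in all 12.

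For 14 of the 18 member probe sets the 95% interval lay inside 0.5-fold to 2-fold, as it did for 84.4% of all single-gene probe sets. The 4 with wider limits were Nedd4 probe sets 3, 4 and 5 and the more variable Smurf2 probe set. In the 5 members with exactly 2 probe sets, the log2 fold changes of the pair differed by 0.08 for Wwp1, 0.10 for Wwp2, 0.14 for Smurf2, 0.16 for Smurf1 and 0.22 for Ndfip2, where the median over 3061 genes with 2 probe sets was 0.13.

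Other genes of ubiquitin transfer were counted by the probe set with the highest mean per gene, for which 2.30% of 14217 genes were higher and 0.654% lower at an unadjusted p under 0.05, with a median log2 fold change of 0.03. Hecw1 and Hecw2, the remaining ligases of the Nedd4 family, differed from control by -0.13 (standard error 0.20) and 0.10 (standard error 0.19) log2. Hecw1 was dim, at percentile 6.39 by mean, and whether its signal stands above background was not determined. Of 15 measured HECT ligases outside the family, 8 lay above 0 and 7 below, with a median log2 fold change of 0.02. Herc6, known as an interferon-induced ligase in mice, was the exception with 6.04, 6.98 and 7.72 in CNT and 4.70, 4.44 and 6.52 in control cultures. Control 3 reached into the CNT range, and the log2 fold change was 1.69 (standard error 0.67, unadjusted p = 0.0443 and adjusted p = 0.999 from limma). The signal of controls 1 and 2 was not tested against background either. G2e3 (-0.27, standard error 0.19) and Huwe1 (-0.15, standard error 0.15) had the next smallest p in that list by log2 fold change.

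The enzymes that supply or remove ubiquitin were counted in the same way. The 7 measured genes of the activating and conjugating enzymes had log2 fold changes of -0.10 to 0.01, among them Uba1, which activates ubiquitin (-0.06, standard error 0.16), Ube2d1 (-0.10, standard error 0.16) and Ube2e3 (-0.05, standard error 0.14). The 10 deubiquitinating enzymes ranged from -0.29 to 0.10 with a median of -0.06, among them Usp9x, Usp7 and Usp11 at -0.16 (standard error 0.11), -0.29 (standard error 0.20) and -0.22 (standard error 0.12). None of these 2 lists had an unadjusted p under 0.05.

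Of 12 measured adaptors and regulators outside the members, such as the arrestin-related Arrdc proteins, none had an unadjusted p under 0.05 and the median log2 fold change was 0.10. Grb10, an adaptor that binds Nedd4 and the insulin and IGF-I receptors, had 11.81, 10.91 and 12.39 in CNT and 12.47, 12.27 and 12.10 in control cultures. Its low value in CNT 2 resembles that of Nedd4 probe sets 3 and 4, and its log2 fold change was -0.58 (standard error 0.37, adjusted p = 0.999 from limma). For Amot, a scaffold protein with motifs for WW domains, the difference was -0.31 log2 (standard error 0.19), and for Arrdc2 it was 0.23 log2 (standard error 0.16).

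Of 22 measured channels, receptors and signalling proteins held to be targets or partners of the family, 10 lay above 0 and 12 below, with a median log2 fold change of -0.02, and none had an unadjusted p under 0.05. The sodium channel gene Scn2a had 6.24, 6.07 and 6.91 in CNT and 6.98, 6.52 and 7.01 in control cultures. CNT 3 lay among the controls, and the log2 fold change was -0.43 (standard error 0.26, adjusted p = 0.999 from limma). Scn2a was dim, at percentile 22.0 by mean, and whether its signal stands above background was not determined. Igf1r, the receptor of IGF-I and a Nedd4 target through Grb10, had 10.25, 9.73 and 10.10 in CNT and 10.71, 10.76 and 9.93 in control cultures. Control 3 lay within the CNT range, and the difference was -0.44 log2 (standard error 0.26). The potassium channel gene Kcnq3 was the 1 target with separated groups, at 7.60, 7.73 and 7.58 in CNT and 7.46, 7.48 and 7.50 in control cultures, a log2 fold change of 0.16 (standard error 0.09), against 5.94% of all genes with groups separated in this direction and 2.05% in the other.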

How the data were processed

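Log2 expression was deposited for the manufacturer's probe sets after RMA, run by the authors in a version not given in the sources used here, whereas the study's methods name EntrezGene custom annotation for its own analysis. The values were used as deposited. The 31099 probe sets comprise 20826 of a single gene, 436 of several genes, 9780 of none and 57 controls. CNT and control cultures (3 arrays each) were compared over all single-gene probe sets in limma 3.58.1 (R 4.3.3, lmFit and then eBayes), without pairing, with Benjamini-Hochberg adjustment and a threshold of 0.05. The fit was also run on simulated data with independent noise, which lack the correlation between arrays seen here and so cannot vouch for it on them. The members and gene lists were chosen with earlier results of these data known. All member probe sets are named, and from each list the up to 3 genes of smallest unadjusted p. Periostin, Tpm1 and the comparison of probe set spreads were chosen after values were seen. The study's false positive estimate for the rank product was not computed. Replicates are biological replicates per the labels, and the study's methods describe them as culture series. Alternatives were trend and robust eBayes, array weights, a replicate block, 1 probe set or the probe set mean per gene, leaving out the dimmest 30%, quantile, cyclic loess and median normalization, and leaving out each array. Leaving out CNT 2 and control 1 together was added after the data were seen.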

Additional observations from a re-analysis of the deposited data

How the results depend on the processing

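No member passed an adjusted p of 0.05 under any alternative run, and the lowest adjusted p of a member was 0.813. Over all probe sets, leaving out 1 array gave 0 to 4 calls, the 4 being Prl6a1, Mx1 and 2 probe sets of RT1-S3 without control 3. Over all alternatives, counts at an unadjusted p under 0.05 ranged from 88 to 764 higher and from 101 to 614 lower. The 88 came from leaving out CNT 2 and control 1, and the 101 from 1 probe set per gene, with fewer tests. With 1 array left out the counts were 183 to 764 higher and 139 to 614 lower. Nedd4 probe sets 1 to 5 were negative in every alternative. Of 265 member values recomputed, 27 had the other sign, in 10 probe sets. Of these the more variable Smurf2 was at -0.33 with all arrays. With 1 array left out their log2 fold changes ranged from -0.25 to 0.35 for Nedd4 probe set 6, -0.07 to 0.22 for Nedd4l, -0.02 to 0.18 and -0.06 to 0.07 for the brighter and dimmer Wwp1, -0.04 to 0.28 for the dimmer Wwp2, -0.24 to 0.12 and -0.01 to 0.13 for Smurf1, -0.70 to 0.13 for the more variable Smurf2, -0.07 to 0.08 for Ndfip1 and -0.21 to 0.07 for the dimmer Ndfip2. Array weights gave 0.01 for the brighter Smurf1 and 0.001 for the dimmer Wwp1. Median centring gave 0.04 for that Wwp1 and 0.01 for the dimmer Ndfip2. The mean of both probe sets gave 0.001 for Smurf1. Without CNT 2 and control 1, Nedd4l was at -0.14, the dimmer Wwp1 at 0.05 and the dimmer Wwp2 at -0.12. The cause of these sign changes was not tested.

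The study names 3 culture series per condition, and does not state whether CNT and control cultures of the same number shared a series. The main fit did not pair them. Deviations from the group means correlated at -0.333, 0.187 and 0.520 across probe sets for numbers 1, 2 and 3, which does not decide the question. In the differences between transcript ends, the array numbered 3 was lowest in both groups for the Dap, Lys, Phe and Thr controls. These controls are not of rat, so their values describe the arrays and cannot tell of a shared culture series. Of the rat transcripts, hexokinase was also lowest in number 3 of both groups, in CNT cultures only just (2.75 against 2.76 log2 in CNT 2). Beta-actin and Gapdh were not. A shared series was not tested. With the replicate block, 0 probe sets were called, and 531 higher and 293 lower had an unadjusted p under 0.05. For Nedd4 probe set 1395157_at the unadjusted p from limma was 0.00482 with the block and 0.0207 without it. It rose with the block for the other Nedd4 probe sets, from 0.0346 to 0.0518 for 1375119_at and from 0.0473 to 0.0919 for 1383899_at. CNT 1 correlated best with control 2 (0.744), CNT 2 with control 2 and CNT 3 with control 3.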
